A study of Homo sapiens with 6 samples.

Results

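The genes described here encode secreted cytokines, chemokines, growth factors and hormones, many of which are counted among the factors that senescent fibroblasts release. The list names 35 genes, and they were found in the count files by Ensembl identifier. Of these, 34 had a row in the files, among 57659 genes in all, and for CCL5 no identifier matched. Counts allowed a test for 15 of them. Another 13 had counts too low to test, and 6 had no count in any library.

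RNA was sequenced from IMR90, a line of primary human fetal lung fibroblasts grown in serum, in 2 groups of 3 libraries. Control cells expressed a short hairpin RNA (shRNA) against luciferase, which has no target in human cells, and knockdown cells expressed a shRNA against macroH2A1, a histone H2A variant with a large globular domain. The labels give no senescence-inducing treatment for either group, and they do not say how many hairpin sequences were used against macroH2A1. The question of the comparison was which genes change when macroH2A1 is depleted.

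Secreted cytokines act as short-range signals between cells. Interleukin 1 and related signals activate the transcription factor NF-kB, which, together with C/EBP proteins, switches on genes such as IL6 and the CXC chemokines, and this programme is known as the senescence-associated secretory phenotype when senescent fibroblasts run it. Ligands of the EGF receptor are made as membrane proteins and shed by ADAM proteases, and ligands of the IL-6 family signal through the shared receptor subunit gp130 and the JAK-STAT pathway.

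The libraries held 3741087 to 6421605 counts in genes, so that 3 counts, the upper limit that a count of 0 allows, correspond to 0.467 to 0.802 CPM (counts scaled to a common library total) depending on the library. The targeted gene MACROH2A1 fell by 1.11 on the log2 scale (SE 0.08; edgeR adjusted p = 0.000917). All 8 fibroblast markers were detected and had positive fold changes, and 4 of them rose; their summed level was 6420 to 7436 CPM in the control and 9780 to 10381 CPM in the knockdown. Of 9 leukocyte markers, CD3E was at 0 and PTPRC, the pan-leukocyte antigen, had 1 count in each group. The leukocyte list summed to 5.49 to 7.44 CPM in the control and 4.55 to 5.44 CPM in the knockdown, nearly all of it from CD68. Endothelial markers summed to 67.1 to 72.5 CPM in the control and 143 to 149 CPM in the knockdown, mostly from TEK. TEK (904 and 1770 counts) rose. KDR (5 and 111 counts) also rose, but it entered the test through its knockdown counts alone, so its call is given as a description. FLT1 (95 and 64 counts) went the other way and did not pass, and VWF (17 and 8 counts) was too low to test. CDH5 and CLDN5 had 1 count each, and PECAM1 was at 0 in all libraries. Epithelial markers summed to 27.4 to 29.7 CPM in the control and 7.32 to 11.8 CPM in the knockdown, mostly from KRT18, with SFTPB at 0. In bulk RNA, fewer cells of a type and less RNA per cell cannot be told apart, and the part of these marker differences in the results below was not tested.

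Among the 15 tested factors, EREG rose and LIF and STC2 fell in the knockdown (quasi-likelihood test in edgeR, adjusted p under 0.05 by the Benjamini-Hochberg method over all 13445 genes tested). EREG, which encodes the EGF receptor ligand epiregulin, was 3.03-fold higher. STC2, which encodes the secreted glycoprotein stanniocalcin 2, was 1.44-fold lower, and LIF, a cytokine of the IL-6 family, 1.33-fold lower. The other 12 did not pass. Over all genes tested, 8.21% were called, 3.9% higher and 4.31% lower. The median log2 fold change of the 15 was -0.07, against 0.0067 over all genes.

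Groups that did not overlap were more frequent than calls. In 9 of the 15 the CPM values of the 2 groups did not overlap, 3 with the knockdown higher (EREG, IL11 and CXCL12) and 6 with the knockdown lower (IL6, LIF, HBEGF, NRG1, STC1 and STC2). Over all genes tested, 30.4% had such groups, 14.5% with the knockdown higher and 15.9% with it lower. No member reached the level for testing through 1 group alone: that level was 2.24 CPM in at least 3 libraries, and 12 of the 15 exceeded it in all 6. The plot of CPM by library shows that EREG was separated by the widest gap relative to its level.

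**Figure D1:**
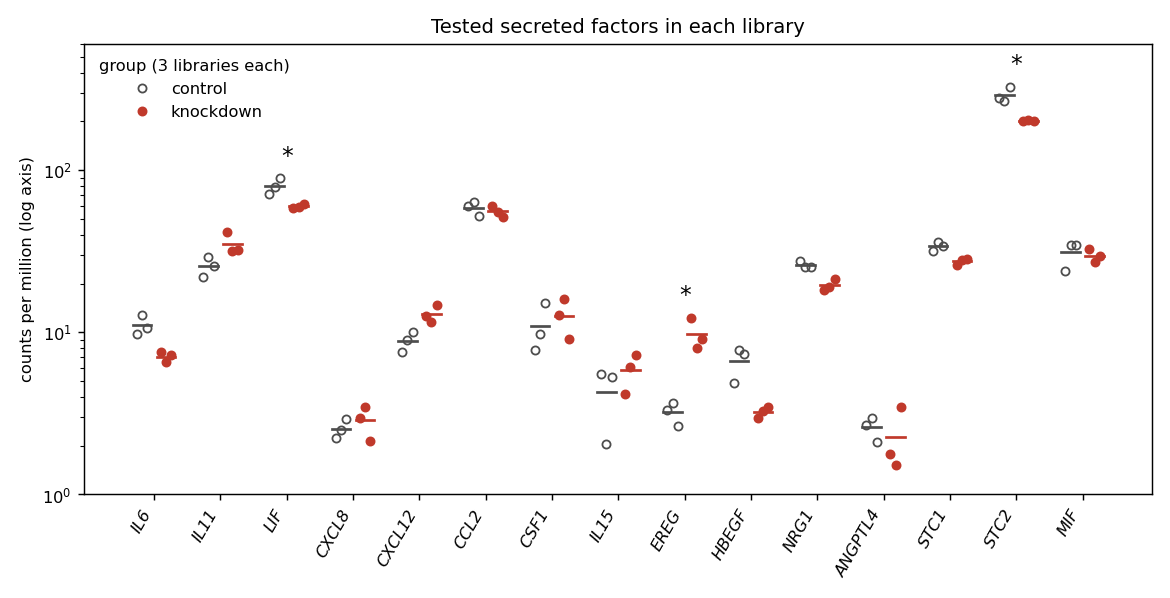
Level of each of the 15 tested secreted factors in CPM (log axis) in the 3 control (open circles) and 3 knockdown (filled circles) libraries; horizontal lines are group means and asterisks mark genes with an edgeR adjusted p under 0.05. EREG lies at 2.64 to 3.66 CPM in the control and 8.05 to 12.3 CPM in the knockdown, while the groups of CCL2 and MIF overlap.

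The levels of the tested factors spread widely when expressed per kilobase of annotated exon. In the control, STC2 had the highest level, 47.4 ± 5.01 CPM per kilobase (SD, n = 3), above those of 97.3% of the 10437 protein-coding genes tested. CCL2 (29.5 ± 2.95), MIF (28.1 ± 5.54) and LIF (20.1 ± 2.28 CPM per kilobase; SD, n = 3) came next, and CCL2 and MIF did not differ beyond their spread. IL11, STC1 and IL6 lay at 9.58, 8.16 and 5.35 CPM per kilobase, above the median protein-coding gene at 3.42. The remaining 8 were below it, down to EREG at 0.561 and IL15 at 0.546 CPM per kilobase, which did not differ beyond their spread. In the knockdown the first 7 places kept their order, while EREG moved from place 14 to place 11 with 1.72 CPM per kilobase and HBEGF from place 9 to place 13 with 1.07.

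Of the EGF receptor ligands and the related neuregulin gene NRG1, EREG rose, while HBEGF and NRG1 had lower values that did not pass. The control libraries held 21, 16 and 10 EREG counts, against 62, 37 and 34 after knockdown. These correspond to 3.32, 3.66 and 2.64 CPM against 12.3, 8.05 and 9.11 CPM, so the lowest knockdown library lay above the highest control library. The log2 fold change was 1.60 (SE 0.25, edgeR adjusted p = 0.0127), larger than that of 98.6% of all genes tested. Without control replicate 1 the call was lost (edgeR adjusted p = 0.0537) at a log2 fold change of 1.63, and leaving out any other library kept it.

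HBEGF, the heparin-binding EGF-like growth factor, had 4.90, 7.77 and 7.40 CPM in the control libraries and 2.97, 3.26 and 3.48 CPM in the knockdown libraries. The groups did not overlap, yet the log2 fold change of -1.03 (SE 0.26) did not pass (edgeR adjusted p = 0.0582). NRG1, which encodes neuregulin 1, a ligand of the related receptors ERBB3 and ERBB4, had 27.7, 25.4 and 25.1 CPM in the control and 18.2, 19.1 and 21.4 CPM in the knockdown. Its log2 fold change of -0.42 (SE 0.10) lay just beyond the threshold (edgeR adjusted p = 0.0507). AREG, which encodes amphiregulin, was too low to test, with 1 count in each control library and 3, 6 and 4 after knockdown. The ratio of its summed counts, 13 to 3, was 4.69 after scaling, with an exact 95% interval of 1.29 to 25.6 that covers counting error only. The genome build of the files holds a near-identical copy of AREG, and only uniquely aligned reads entered the counts, so its level is uncertain.

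EREG and AREG are neighbours on chromosome 4, and STC2 lies on chromosome 5. The 200 bases before the start site of these 3 genes are shown from RefSeq (GRCh38.p14), 5′ to 3′, since EREG had the largest fold change of the tested factors, AREG is its neighbour and STC2 the most abundant factor. Capitals mark the TATA motif TATAAA and, in AREG, the cyclic AMP response element TGACGTCA.
EREG (chr4:74364945-74365144, + strand): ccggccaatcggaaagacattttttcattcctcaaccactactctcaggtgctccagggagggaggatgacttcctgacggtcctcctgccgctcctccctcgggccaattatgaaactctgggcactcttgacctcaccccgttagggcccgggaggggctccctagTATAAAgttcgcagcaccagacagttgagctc
AREG (chr4:74444936-74445135, + strand): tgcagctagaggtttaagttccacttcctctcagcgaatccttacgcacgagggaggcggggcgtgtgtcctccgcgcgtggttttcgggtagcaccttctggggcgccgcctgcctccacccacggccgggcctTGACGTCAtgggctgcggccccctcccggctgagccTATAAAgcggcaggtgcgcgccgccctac
STC2 (chr5:173328415-173328614, - strand): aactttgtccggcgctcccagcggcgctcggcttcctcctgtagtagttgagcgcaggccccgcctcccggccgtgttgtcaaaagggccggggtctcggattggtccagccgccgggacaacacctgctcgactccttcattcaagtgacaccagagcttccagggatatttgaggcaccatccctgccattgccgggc
EREG and AREG each held the TATA motif, with its first base at -32 and -29 from the start site, and AREG held the response element at -65. Neither motif was in the STC2 window. Over all 35116 RefSeq windows of 300 bases (250 before the start site and 50 after it), 11.5% held TATAAA and 1.85% held TGACGTCA on either strand. These matches are letters in the window and were not tested as binding sites.

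The hormones and MIF were the most abundant group, and all 4 had negative fold changes, although that of MIF changed sign with some libraries left out. STC2 had 279.7, 267 and 325 CPM in the control libraries and 202, 203 and 201 CPM in the knockdown libraries. The knockdown libraries were nearly equal, and all were below the lowest control library. The log2 fold change was -0.53 (SE 0.09, edgeR adjusted p = 0.0178). The call was lost without control replicate 1 (edgeR adjusted p = 0.0577) and without knockdown replicate 1, 2 or 3 (0.0649, 0.0657 and 0.0715), with log2 fold changes from -0.58 to -0.44 over the 6 libraries left out in turn.

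STC1, the paralog of STC2, had 31.8, 35.9 and 33.8 CPM in the control and 25.9, 28.1 and 28.1 CPM in the knockdown. The groups did not overlap, and the log2 fold change of -0.31 (SE 0.08) did not pass (edgeR adjusted p = 0.0720). ANGPTL4, a secreted inhibitor of lipoprotein lipase, had 2.11 to 2.97 CPM in the control and 1.52 to 3.48 CPM in the knockdown, with a log2 fold change of -0.25 (SE 0.37). MIF, macrophage migration inhibitory factor, had overlapping groups around 31.1 ± 6.14 and 29.7 ± 2.84 CPM (SD, n = 3 per group; log2 fold change -0.06, SE 0.16).

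The plot of log2 fold changes sets these members against the spread of all genes. EREG lies above and HBEGF and IL6 lie below the middle 90% of all genes, which ran from -0.59 to 0.86.

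**Figure D2:**
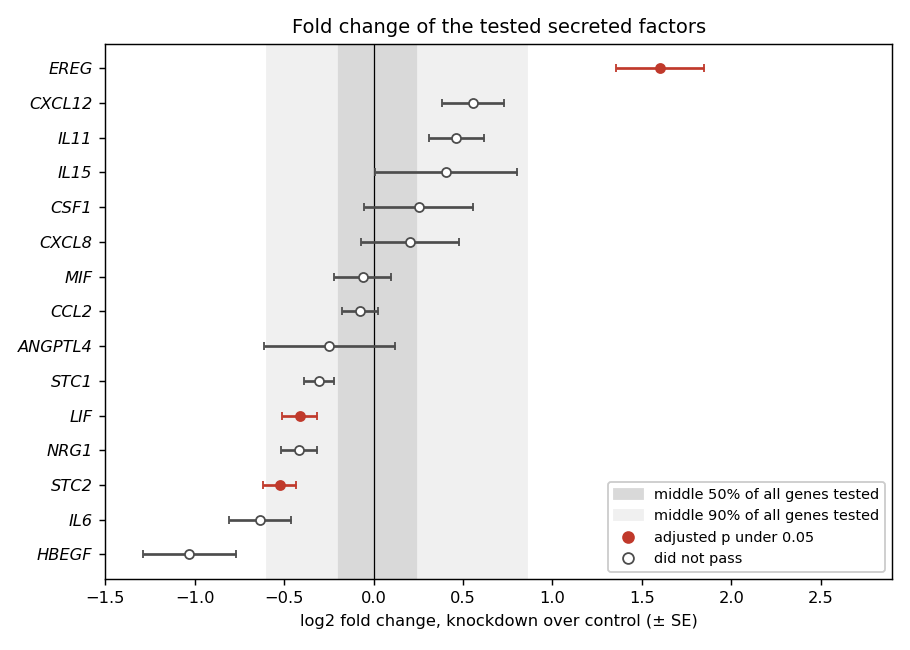
Log2 fold change, knockdown over control, of the 15 tested secreted factors with the standard error as bars, ordered by size; filled red points passed the edgeR test. The dark band holds the middle 50% and the light band the middle 90% of the 13445 genes tested, and EREG at 1.60 and HBEGF at -1.03 lie outside the light band.

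All 3 listed members of the IL-6 family were tested, and their fold changes did not share a sign. LIF had 71.0, 79.1 and 89.1 CPM in the control libraries and 58.7, 58.9 and 61.9 CPM in the knockdown libraries. The groups did not overlap, and LIF fell by 0.41 on the log2 scale (SE 0.10; edgeR adjusted p = 0.0480). This call was the weakest of the 3: leaving out any 1 of the 6 libraries ended it, at adjusted p from 0.0514 (without control replicate 1) to 0.133 (without knockdown replicate 1), and log2 fold changes from -0.48 to -0.33.

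IL6, the main inflammatory cytokine of the family, had 9.81, 12.8 and 10.6 CPM in the control and 7.52, 6.52 and 7.23 CPM in the knockdown. Every knockdown library was below every control library, and the log2 fold change of -0.63 (SE 0.17) did not pass (edgeR adjusted p = 0.0720). STEAP1B overlaps IL6 on the opposite strand in GENCODE 29 (17, 8 and 4 control and 5, 6 and 3 knockdown counts), and LIF-AS1, opposite LIF, had 1 count in all. IL11, a profibrotic cytokine of fibroblasts, had 21.8, 29.3 and 25.6 CPM in the control and 41.5, 31.5 and 32.1 CPM in the knockdown. Its groups did not overlap either, with the knockdown higher, and the log2 fold change of 0.46 (SE 0.15) did not pass (edgeR adjusted p = 0.121).

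The ELR chemokines, which attract neutrophils through CXCR1 and CXCR2, were nearly silent in both groups. Only CXCL8, interleukin 8, was tested, at 14, 11 and 11 control counts against 15, 16 and 8 after knockdown. Its groups overlapped, and the log2 fold change was 0.20 (SE 0.27, edgeR adjusted p = 0.714). The other members of this family had lower counts, with more in the knockdown group. CXCL1 went from 4, 0 and 0 counts to 9, 5 and 9, and the scaled ratio of the sums was 6.22 (exact 95% interval 2.12 to 24.7, counting error only). The sums for CXCL3 were 1 and 8, with a scaled ratio of 8.65 (1.16 to 384), and none of its knockdown counts came from replicate 3.

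CXCL6 had no control count and 3, 2 and 2 knockdown counts. The scaled ratio of the sums was 2.52 when the control sum is set to 3 and the knockdown sum is taken as counted. The CXCL2 sums of 2 and 6 gave a scaled ratio of 3.24, whose interval of 0.580 to 32.9 includes no difference. CXCL5 had 0 and 2 counts. When all genes with at least 1 count entered the edgeR fit, CXCL1, CXCL2, CXCL3, CXCL5 and CXCL6 did not pass, with adjusted p from 0.107 for CXCL1 to 0.655 for CXCL2 and CXCL5. Summed over the 6 ELR chemokines, the control libraries held 19, 13 and 11 counts and the knockdown libraries 34, 28 and 23.

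The sequences upstream of the ELR chemokines other than CXCL8 are shown because each holds a match to the NF-kB consensus. The pattern searched was GGGRNNYYCC, with R for A or G, Y for C or T and N for any base. The CXCL8 window held no match to it, but a site with other letters would be missed. In the RefSeq windows of CXCL1, CXCL2, CXCL3, CXCL5 and CXCL6, and in those of IL6 and IL32, a match to the NF-kB consensus lay before the start site. The 50 bases around each match are shown 5′ to 3′, in GRCh38.p14 coordinates, with the matching bases in capitals; where the match is palindromic, capitals cover both overlapping matches.
CXCL6 (chr4:73836568-73836617, + strand): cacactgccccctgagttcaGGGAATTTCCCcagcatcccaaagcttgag
CXCL1 (chr4:73869294-73869343, + strand): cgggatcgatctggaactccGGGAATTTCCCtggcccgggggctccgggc
CXCL5 (chr4:73998739-73998788, - strand): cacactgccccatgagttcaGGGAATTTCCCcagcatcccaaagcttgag
CXCL3 (chr4:74038739-74038788, - strand): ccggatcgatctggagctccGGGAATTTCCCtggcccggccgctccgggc
CXCL2 (chr4:74099244-74099293, - strand): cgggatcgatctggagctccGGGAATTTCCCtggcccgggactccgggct
IL6 (chr7:22727107-22727156, + strand): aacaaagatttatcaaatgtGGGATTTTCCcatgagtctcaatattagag
IL32 (chr16:3065284-3065333, + strand): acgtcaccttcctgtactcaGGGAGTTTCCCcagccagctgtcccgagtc
The first base of the match lay at -90 in CXCL6, -79 in CXCL1, -91 in CXCL5, -79 in CXCL3 and -78 in CXCL2. Aligned on the match, CXCL6 and CXCL5 differed at 1 of 50 bases and CXCL1 and CXCL3 at 4 of 50, whereas CXCL6 and CXCL1 differed at 28. CXCL1, CXCL2 and CXCL3 are close paralogs and only uniquely aligned reads entered the counts; how many reads they share was not tested.

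The NF-kB consensus was found in 8 of the 25 members with a window, CCL20 being the eighth, and in 11.3% of all windows. Other motifs searched on both strands were the AP-1 motif TGANTCA, in 4 members (CXCL8, IL11, IL1A and CCL7) and 7.71% of windows, and the STAT motif TTCNNNGAA, in 7 members and 7.66% of windows. RefSeq windows were not matched for LIF, CCL2, CSF1, CSF3, CCL5, CXCL16, IL7, IL15, NRG1 and STC1.

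The ELR chemokines and 2 EGF receptor ligands lie in 1 gene cluster on chromosome 4, and the plot of the cluster gives its counts in chromosomal order. From CXCL8 to AREG, every gene with more than 1 count had more counts in the knockdown group than in the control group. Most of these sums were too low to test, and the groups of CXCL8 (36 and 39 counts) overlapped. Over all 13445 genes tested, 6832 had a positive fold change. A change of the cluster as a whole was not tested. MTHFD2L, a mitochondrial folate enzyme whose gene lies between CXCL2 and EREG, was tested at a log2 fold change of 0.63 (SE 0.26) and did not pass (edgeR adjusted p = 0.195). PF4V1, a platelet factor 4 variant, had 0 and 4 counts, and PF4 and BTC had none. PARM1, beyond BTC, had 17 control and 8 knockdown counts. Of 16 genes in the cluster, 3 were tested, and EREG alone passed.

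**Figure D3:**
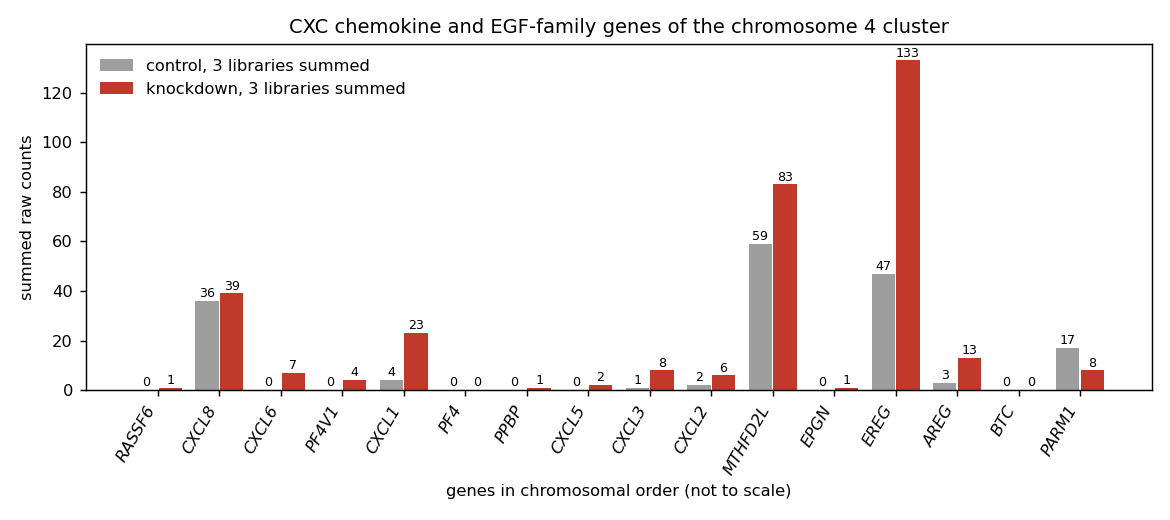
Raw counts summed over the 3 control (grey) and 3 knockdown (red) libraries for 16 genes of the chromosome 4 cluster in chromosomal order, with the number above each bar. EREG stands at 47 and 133 counts, CXCL1 at 4 and 23, and CXCL8 at 36 and 39; the groups' totals differ by depth, which the bars do not correct.

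Of the other CXC chemokines, CXCL12, a stromal chemokine that binds CXCR4, had 7.59, 8.92 and 10.0 CPM in the control libraries and 12.7, 11.5 and 14.7 CPM in the knockdown libraries. The groups did not overlap, and the log2 fold change of 0.56 (SE 0.17) did not pass (edgeR adjusted p = 0.103). CXCL16, which also exists as a membrane-bound scavenger receptor, had 3 control counts and 1 knockdown count.

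Among the CC chemokines listed as members, which recruit monocytes and other leukocytes, only CCL2 had counts in these libraries, while CCL5 was not matched. It had 60.4, 63.3 and 52.1 CPM in the control and 59.9, 55.5 and 51.7 CPM in the knockdown. The groups overlapped over most of their range, with a log2 fold change of -0.07 (SE 0.10; adjusted p = 0.711 with edgeR). CCL7 and CCL8, which lie in the same cluster on chromosome 17, had no counts in any library, nor did CCL20 and CCL26. CSF2 and CSF3, which encode GM-CSF and G-CSF, also had none. CSF1, the macrophage growth factor, had 7.75, 9.83 and 15.1 CPM in the control and 12.9, 16.1 and 9.11 CPM in the knockdown, with overlapping groups (log2 fold change 0.25, SE 0.30, edgeR adjusted p = 0.669).

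Interleukin 1 genes stand at the head of the inflammatory secretory programme and were not detected beyond a few reads. IL1A summed to 0 control and 3 knockdown counts. IL1B summed to 7 and 9, a scaled ratio of 1.39 (0.461 to 4.39), and IL33 to 5 and 6. Differences in these 3 genes were not detectable at this depth.

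Of the other interleukins, IL7 and IL32 were too low to test and their counts did not overlap between the groups. IL7, a lymphocyte survival factor, had no control count and 5, 5 and 7 knockdown counts. Its scaled ratio of sums was 6.13 when the control sum is set to 3 and the knockdown sum is taken as counted. ZC2HC1A overlaps IL7 on the opposite strand in GENCODE 29 and had 30, 16 and 19 control and 28, 26 and 21 knockdown counts; the strand setting of the counting is not given, so the source of the IL7 reads is uncertain. IL32, an inducer of inflammatory cytokines, had 12, 13 and 19 control counts and 4, 3 and 4 knockdown counts, and the scaled control sum was 3.70 times that of the knockdown (1.88 to 7.94). In the edgeR fit of all genes with at least 1 count, where 3.93% of 32553 genes were called, the adjusted p was 0.0189 for IL7 and 0.0438 for IL32. IL7 entered that fit through its knockdown counts alone, so its value is given as a description. IL15, a growth factor of natural killer cells, was tested with overlapping groups (log2 fold change 0.41, SE 0.40), and its lowest value was the 2.06 CPM of control replicate 2. IL24 had 1 count in all.

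**Figure D4:**
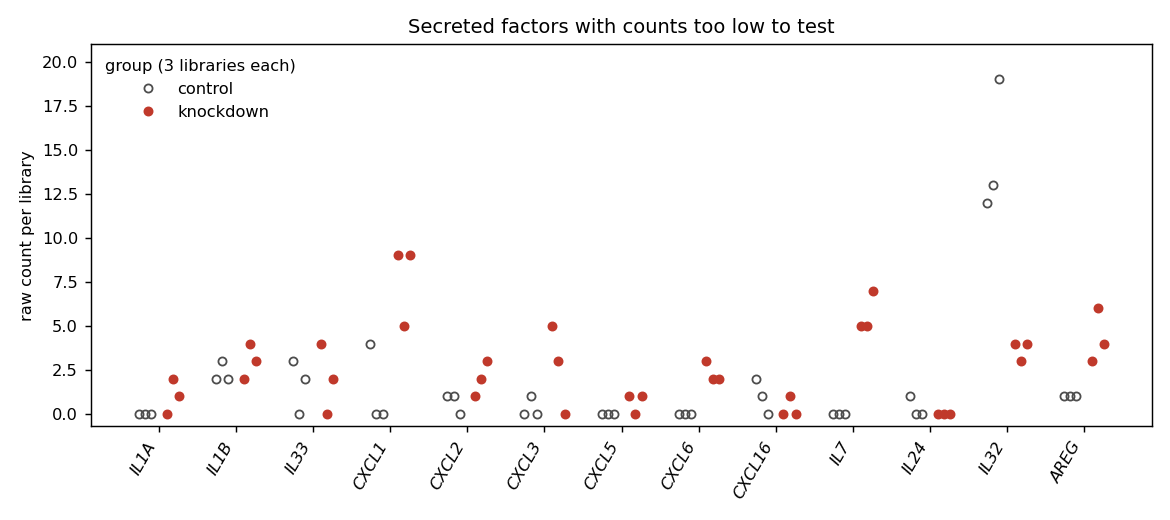
Raw counts per library of the 13 secreted factors too low to test, in 3 control (open circles) and 3 knockdown (filled circles) libraries. IL32 reaches 12 to 19 counts in the control and 3 to 4 in the knockdown, IL7 is at 0 in the control and 5 to 7 in the knockdown, and most other genes stay at 5 counts or fewer.

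The authors' deposited table lists 17 of the members, and 4 of them have an adjusted p under 0.05 there, where 12% of its 11638 genes do. In the authors' deposited table EREG and CXCL1 are higher in the knockdown, with log2 ratios of 1.62 and 3.07 (adjusted p = 1.45e-05 and 0.0447), and STC2 and LIF lower, with -0.51 and -0.40 (adjusted p = 3.36e-05 and 0.00715). IL32 has a log2 ratio of -1.96 in the authors' deposited table, with an adjusted p of 0.0746. When edgeR tested only the genes of that table, 10 of the 17 members passed, where 17.7% of genes did. CXCL1, CXCL12, EREG and IL11 were higher and HBEGF, IL32, IL6, LIF, NRG1 and STC2 lower. CXCL1 (4 control and 23 knockdown counts) and IL32 (44 and 11) drew most of their counts from 1 group. A filter on summed counts can admit such genes through that group, so their values in both analyses are given as a description.

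Receptors for these ligands were mostly absent or did not pass. Of 36 listed receptor genes, 13 had no counts, 10 were tested, and IL1R1 rose and IL7R fell. The share to set beside the calls in this list and those that follow is the 8.21% called over all genes tested. For fits without 1 library, that share is 3.06% to 4.04%. IL1R1, the signalling receptor of interleukin 1, had 45.9, 40.2 and 44.9 CPM in the control and 109.8, 104 and 111 CPM in the knockdown. The groups were far apart, and the log2 fold change was 1.30 (SE 0.08, edgeR adjusted p = 0.000764). IL7R, a receptor subunit for IL7 and TSLP, had 84.5, 78.7 and 78.5 CPM in the control and 42.1, 46.1 and 35.9 CPM in the knockdown, with a log2 fold change of -0.96 (SE 0.10; adjusted p = 0.00365 with edgeR). Both calls held without any 1 library. The median log2 fold change was 0.15 over the receptors tested, -0.04 over the NF-kB and C/EBP regulators described next, -0.14 over the other NF-kB targets, 0.06 over the JAK-STAT genes and 0.16 over the senescence markers, against 0.0067 over all genes.

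EGFR, the receptor for EREG, HBEGF and AREG, had 186 ± 10.6 CPM in the control and 142 ± 14.9 CPM in the knockdown (SD, n = 3 per group) and did not pass (log2 fold change -0.38, edgeR adjusted p = 0.0603). For the LIF receptor, LIFR and IL6ST (gp130) had log2 fold changes of -0.10 and -0.08 (edgeR adjusted p = 0.483 and 0.580). CXCR1, CXCR2 and CXCR4 had no counts. Of 8 tested genes for processing or shedding of the ligands, edgeR called 0, DESeq2 0 and limma-voom 1. Over all genes tested, DESeq2 called 9.55% and limma-voom 9.07%. The lowest edgeR adjusted p of the 8 was 0.104, for ADAM10. ADAM17, the main sheddase of EGF receptor ligands, had a log2 fold change of 0.08.

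Regulators and other targets of NF-kB held calls in both directions. Of 30 tested NF-kB and C/EBP regulators, 2 rose and 3 fell. CEBPD, a transcription factor of inflammatory genes, and ZFP36L2, an mRNA-destabilising protein, rose 1.45-fold and 1.37-fold. IRAK1, a kinase of interleukin 1 signalling, NFKBIA, the inhibitor IkB-alpha, and TNIP1, an inhibitor of NF-kB activation, were 1.43-fold, 1.41-fold and 1.41-fold lower. Without 1 library, 0 to 2 of the 30 regulators were called (0 without control replicate 2), beside 3.06% to 4.04% of all genes tested. NFKB1 and RELA had log2 fold changes of 0.07 and 0.13 and did not pass.

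Of 15 other NF-kB target genes, 3 rose and 5 fell. PTX3, the secreted pattern recognition protein pentraxin 3, fell from 83.4, 86.4 and 78.2 CPM to 25.9, 22.0 and 27.6 CPM, a log2 fold change of -1.72 (SE 0.10; adjusted p = 0.000758 with edgeR). BIRC3, an inhibitor of apoptosis, was 4.06-fold lower and lost its call in 5 of the 6 fits without 1 library, holding it only without knockdown replicate 2. It had 39, 31 and 23 control counts and 5, 12 and 4 knockdown counts. Only knockdown replicate 2 of its group exceeded the level for testing. The control libraries alone thus admitted BIRC3 to the test, and its call is given as a description. TNFAIP6, a secreted hyaluronan-binding protein, rose 2.39-fold and lost its call without control replicate 2 or 3 or knockdown replicate 1 (edgeR adjusted p = 0.0590, 0.0518 and 0.0536). TNC, the matrix protein tenascin C, and VCAM1, an adhesion molecule, rose 2.25-fold and 1.65-fold, and these calls held without any 1 library. With 1 library left out, 4 to 7 of the 15 were called, beside 3.06% to 4.04% of all genes tested.

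In the JAK-STAT list of 19 tested genes, SOCS3, a feedback inhibitor of IL-6 family signalling, and STAT5B rose 1.55-fold and 1.39-fold, and PTPN11, a phosphatase downstream of cytokine receptors, was 1.34-fold lower. At most 1 of these was called with any library left out. Among 64 other chemokines and interleukins, 5 were tested and IL16, a T cell chemoattractant, rose from 5.16 ± 0.310 to 12.7 ± 1.24 CPM (SD, n = 3 per group, edgeR adjusted p = 0.00607). ANGPTL2, a secreted relative of ANGPTL4, rose 1.75-fold and kept this call only without control replicate 3 among the fits without 1 library.

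Of 13 markers of senescence, CDKN1A and CDKN2B, which encode the cell-cycle inhibitors p21 and p15, fell, with log2 fold changes of -0.45 and -0.90 (edgeR adjusted p = 0.0178 and 0.0164). CDKN1A kept its call only without control replicate 1 and CDKN2B only without control replicate 2 or knockdown replicate 3. CDKN2A had a log2 fold change of -0.45 and LMNB1, a lamin that is lost in senescent cells, of 0.16, and neither passed (edgeR adjusted p = 0.406 and 0.403).

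**Figure D5:**
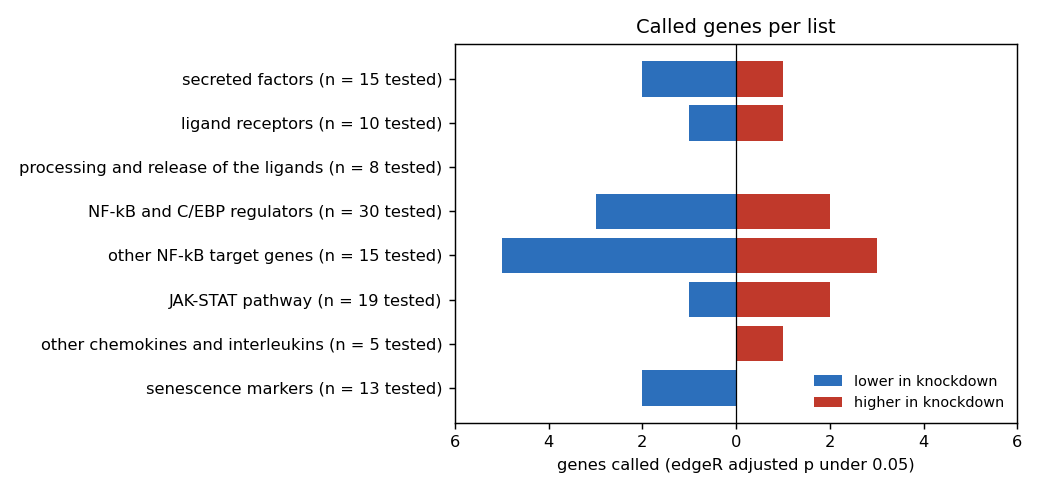
Number of genes called higher (red, to the right) and lower (blue, to the left) in the knockdown in each list, with the number tested in brackets (edgeR adjusted p under 0.05). The secreted factors hold 1 higher and 2 lower of 15, and the list with the most calls, other NF-kB target genes, holds 3 higher and 5 lower of 15. Over all genes tested, 8.21% were called. The lists were chosen with earlier results of these data known, so the calls are a description.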

How the data were processed

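RNA depleted of ribosomal RNA was sequenced in 1 lane with a dUTP second strand, per the labels' protocols. Alignment with GSNAP to hg19 and counting with HTSeq are named in the submitters' processing notes; for the annotation and the strand setting, nothing was given in the sources used here. The authors' count files hold unnormalised reads by Ensembl identifier, as deposited. Rows that name no gene were left out. The row for alignments that were not unique held 64.4% to 68.8% of each library's total over all rows. The authors' deposited table, from DESeq 1.10.1 per the submitters' processing notes, gives normalised signal means, fold ratios, log2 ratios and p-values for 11638 genes.

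Counts were tested with edgeR 4.0.16 (R 4.3.3; TMM, filterByExpr with a minimum count of 10, quasi-likelihood test, Benjamini-Hochberg adjustment over all genes tested, threshold 0.05). CPM values divide counts by TMM-scaled library totals; floors and the filter level use unscaled totals. Alternatives included DESeq2 1.42.0 and limma 3.58.1 (voom). Exon lengths came from GENCODE 29, and promoter windows from RefSeq. Intervals and floors cover counting error only. The series calls the libraries biological replicates; the labels do not say whether hairpins were introduced separately for each. Simulated data with 13172 genes gave every gene the same dispersion and changed 62, 69 and 67 genes by log2 0.5, 1 and 2. The knockdown fit recovered 1.61%, 18.8% and 98.5% of these. In the real data the dispersion differs between genes and 1104 genes were called, so these shares do not give the power for the members. All listed members were described, with CPM per library for called genes and those with higher counts; from each pathway list, up to 5 called genes with the largest log2 change, called receptors and regulators were named, and other named genes were chosen after their values were seen. The members and lists were chosen with earlier results of these data known.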

Additional observations from a re-analysis of the deposited data

How the results depend on the processing

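Among the 15 tested factors, 3 were called, and the number of members called depended on the settings. It was 10 of 17 with only the genes of the authors' table tested, and these included CXCL1 and IL32, which are not among the 15. It was 7 at an adjusted p under 0.1 and 0 at an adjusted p under 0.01. With 1 library left out, 15 or 16 members were tested and 0 to 2 called (0 without control replicate 1). The count over all genes, 1104, became 2060, 1881 and 317 under the first 3 of these settings, and 427 to 564 with 1 library left out. With the replicate number as a block, 416 genes and 0 members were called (edgeR adjusted p of 0.0506 for EREG, 0.0599 for STC2 and 0.0788 for LIF). The deviations of same-numbered libraries correlated at -0.0255, -0.0181 and -0.173. These values show no pairing by number, but with 3 libraries per group they cannot exclude it. The labels do not say whether the replicate numbers pair the libraries. MIF, which did not pass, ranged from a log2 fold change of -0.22 to 0.028 with 1 library left out; it was positive, at 0.028, 0.018 and 0.0075, without control replicate 2, control replicate 3 and knockdown replicate 2. The cause of these changes was not tested; fits without a library have fewer samples. MACROH2A1, IL1R1, IL7R, PTX3, TNC, VCAM1 and IL16 were called under all 17 alternatives, EREG under 14, STC2 under 11 and LIF under 4. At these depths, intervals for genes of a few counts were wide, and those for IL1B, IL33 and CXCL2 included no difference.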
